A study of Sus scrofa with 2 samples.

Results

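The neural and glial miRNAs described here were chosen by number, as every porcine miRBase probe of the array of the families miR-9, miR-124, miR-128, miR-129, miR-137, miR-138, miR-153, miR-218 and miR-219. This gave 9 of the 355 probes, from 7 of the 9 families. No probe with a porcine miRBase name belonged to miR-137 or miR-138. One of the added probes, Y-74, has the candidate name ssc-miR-137 in the study's probe list, and it is given beside the 9 but was not counted among them. The RNA came from the anterior pituitary of 20-day-old female piglets of a small Chinese breed, the Bama minipig (YB), and of a large commercial breed, the Landrace (YC). No treatment was given. Each breed was represented by a single array, read from a pool of 3 pigs. Small RNAs were captured on it by probes complementary to known miRNAs and made visible with the dye Cy5.

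Each value is a linear signal intensity in arbitrary units, after background subtraction and normalization by the authors. Of the probes, 255 carry a porcine miRBase name and 100 were added by the authors and named Y-. Total signal was 695596 on the Bama array and 671754 on the Landrace array, with medians of 114 and 95.1. A single array per breed leaves the variation among pigs unknown and allows no statistical test, so that all differences below are differences between these arrays. Because probes bind with unequal strength, the order of the levels is an order of signals and not of molecule numbers. In whole tissue, fewer cells of a type and less RNA per cell cannot be told apart.

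MicroRNAs are short RNAs that guide Argonaute proteins to messenger RNAs, mainly through the seed near their 5′ end, and lower the stability and translation of those targets. Several families are best known from the nervous system. miR-124 is a hallmark of neurons, miR-9 of neural progenitors and neurons, and miR-219 of oligodendrocytes, the myelinating glia. miR-128, miR-129, miR-137, miR-153 and miR-218 are enriched in neurons and act on excitability, on synaptic proteins or on maturation. The anterior pituitary arises from oral ectoderm and is built of endocrine cells that are electrically excitable and release hormone granules, whereas the posterior lobe is neural tissue with axons and glia.

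The probes differed in sequence and in the arm of the hairpin they read, and the sequences are shown to tell probes of like name apart. The arms are given from general knowledge of these families and were not read from the files. Capitals mark the seed, bases 2 to 8 from the 5′ end. The mature sequences from the study's probe list were as follows.
ssc-miR-129a: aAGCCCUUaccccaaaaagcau
ssc-miR-129b: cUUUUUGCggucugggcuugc
ssc-miR-128: uCACAGUGaaccggucucuuu
ssc-miR-218b: uUGUGCUUgaucuaaccaugug
ssc-miR-218: aUGGUUCUgucaagcaccaug
ssc-miR-153: uUGCAUAGucacaaaaguga
ssc-miR-124a: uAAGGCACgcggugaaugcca
ssc-miR-9-1: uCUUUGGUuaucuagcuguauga
ssc-miR-219: aGAGUUGAgucuggacgucccg
Y-74: uUAUUGCUuaagaauacgcgua

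The 9 members had 9 different seeds, and no other probe of the array had the full seed of any of them at its own bases 2 to 8. Full seeds at shifted positions were not searched for. Bases 2 to 7 of ssc-miR-128 also stand near the 5′ end of ssc-miR-27a and ssc-miR-27b, and those of ssc-miR-124a near the 5′ end of Y-22, which had signals of 72.9 on the Bama array and 22.0 on the Landrace array. The members were 20 to 23 bases long, with a median GC share of 47.6% (from 34.8% to 59.1%) against 50% over all 355 probes. The names ssc-miR-129a and ssc-miR-129b stand for opposite arms of miR-129 hairpins, the 3′ arm and the 5′ arm. They share a complementary run of 7 bases, CUUUUUG at positions 1 to 7 of ssc-miR-129b and CAAAAAG at positions 13 to 19 of ssc-miR-129a. Likewise, ssc-miR-218b is the 5′ arm of miR-218, the arm usually studied in neurons, and ssc-miR-218 is a 3′ arm. They share a complementary run of 8 bases, GUGCUUGA at positions 3 to 10 of ssc-miR-218b and UCAAGCAC at positions 10 to 17 of ssc-miR-218. The probe ssc-miR-219 also reads a 3′ arm. The 5′ arm of miR-219, the one best known from oligodendrocytes, was not among the probes named by the rule.

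In the RefSeq annotation of Sscrofa11.1, 8 of the 9 members could be matched by name, to 12 miRNA genes. MIR128-1 lies within R3HDM1 and MIR128-2 within ARPP21, which encodes a phosphoprotein regulated by cyclic AMP. MIR218-1 lies within SLIT2 and MIR218B within SLIT3, genes of secreted axon guidance proteins. MIR129A and MIR9-1 each lie within a long non-coding RNA gene. No gene held MIR124A-1, MIR124A-2, MIR129B, MIR219A, MIR9-2 or MIR9-3. ssc-miR-153 was not matched.

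The labelled tissue was set against its own miRNAs first. The endocrine miRNA ssc-miR-7 had the highest signal on each array, with 35031 on the Bama array and 42831 on the Landrace array. Y-90, which has the candidate name miR-375 and marks endocrine cells, had 34707 and 32765. The 9 neural and glial miRNAs together had 14991 on the Bama array and 14148 on the Landrace array, or 2.16% and 2.11% of the summed signal. The 6 endocrine and epithelial miRNAs of the list below took 14.2% and 15.7%.

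The signals of the neural miRNAs formed a graded series from bright to dim. The signals of ssc-miR-129a and ssc-miR-128 were between 5384 and 6408 on both arrays, while those of ssc-miR-124a, ssc-miR-9-1, ssc-miR-219 and ssc-miR-218 lay below the array medians. A signal of 100 was reached by 5 of the 9 on the array where each was brighter. The deposited table holds no background or spot data, so no call of detection was made here, and the ratios of the 4 dimmer probes are given as values only.

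A pair of neuronal miRNAs made up most of the signal. ssc-miR-129a had a signal of 6157 on the Bama array and 6408 on the Landrace array, at rank 36 and rank 33 of the 355 probes. ssc-miR-128, which restrains neuronal excitability, had 5384 and 5602, at rank 49 and rank 40. These 2 probes held 11541 of the members' summed signal in Bama minipigs and 12010 in Landrace pigs. Each stood about as high as common miRNAs of other tissues. The probes nearest to ssc-miR-128 in log2 signal on both arrays were ssc-miR-15b, with 5567 and 5752, and ssc-miR-451, a red blood cell miRNA, with 5286 and 5841. The probes nearest to ssc-miR-129a were ssc-miR-27b, with 6343 and 6162, and ssc-miR-145, a smooth muscle miRNA, with 5602 and 6266.

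Next came ssc-miR-218b, known from motor neurons, with 1980 on the Bama array and 1111 on the Landrace array, at rank 79 and rank 97. ssc-miR-129b had 1204 and 877, at rank 97 and rank 109. The probe of the 3′ arm of miR-129 had the higher signal on each array, which, between different probes, does not rank the arms by amount. ssc-miR-153, which acts on proteins of vesicle release, was much dimmer than the miRNAs above, with 180 and 98.0, at rank 161 and rank 173. Among the other probes, Y-11 (175 and 88.8) and ssc-miR-340 (176 and 112) were nearest to ssc-miR-153, and Y-81, with the candidate name ssc-miR-31 (1607 and 1125), and ssc-miR-342 (1581 and 1223) were nearest to ssc-miR-218b. The probes nearest to ssc-miR-129b were ssc-miR-20, with 1002 and 790.5, and ssc-miR-130a, with 1002 and 1005.

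The hallmark miRNAs of neurons and neural progenitors were at the low end, together with a 3′ arm each of miR-219 and miR-218. ssc-miR-124a had a signal of 66.3 on the Bama array and 27.0 on the Landrace array, at rank 197 and rank 223. ssc-miR-9-1, the 5′ arm of miR-9, had 11.5 and 6.26, at rank 259 and rank 272. ssc-miR-219 had 6.13 and 14.8, at rank 279 and rank 243, and describes only the 3′ arm. The lowest member, ssc-miR-218, had 1.27 and 3.58, at rank 310 and rank 295, although the opposite arm ssc-miR-218b was among the brighter members. Summed, these 4 probes had 85.3 on the Bama array and 51.7 on the Landrace array, which was 0.0123% and 0.00769% of all signal.

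The order of the 9 levels was the same in both breeds except that ssc-miR-9-1 lay above ssc-miR-219 in Bama minipigs and below it in Landrace pigs, both at signals under 15. Spearman's rho between the arrays was 0.983 over the 9 probes, as a description across miRNAs that share the same pools.

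**Figure D1:**
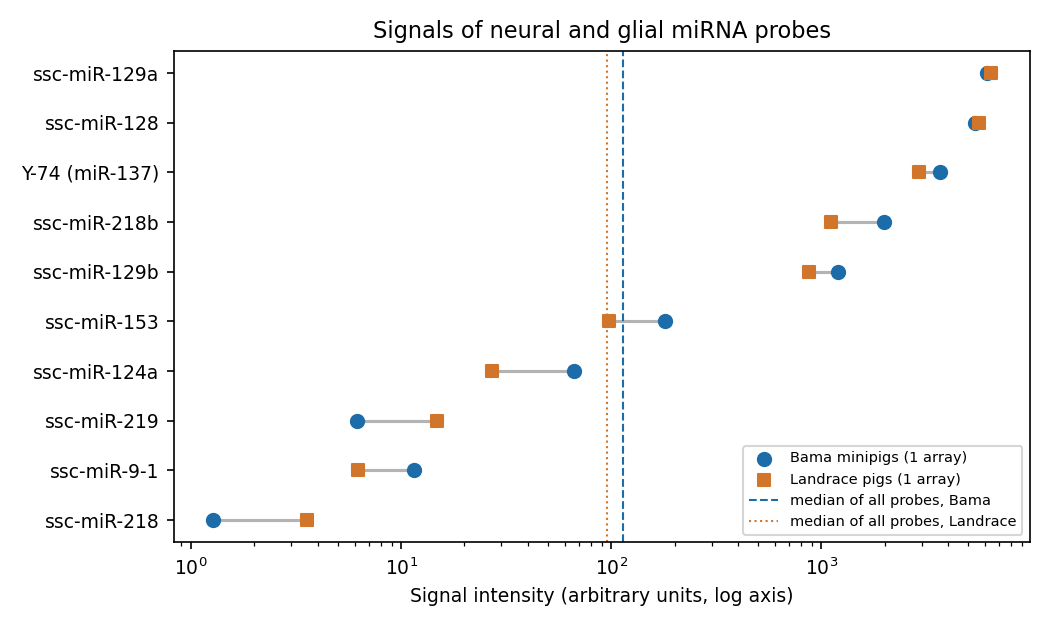
Signal intensity of each neural and glial miRNA probe and of Y-74 (candidate name miR-137) in arbitrary units on a log axis, with circles for Bama minipigs and squares for Landrace pigs (1 array of 3 pooled pigs each) and vertical lines at the median of all 355 probes. ssc-miR-129a and ssc-miR-128 lie at the far right in both breeds, and ssc-miR-124a, ssc-miR-219, ssc-miR-9-1 and ssc-miR-218 lie left of both medians.

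For the comparison of the breeds, the log2 ratio of the signals, Bama minipigs over Landrace pigs, was used, with a fixed limit of 2-fold among the 185 probes whose higher signal was 100 or more. None of the 5 members above this minimum was past the limit in either direction. Over all 185 probes, 24 were 2-fold or more higher in Bama minipigs (13.0%) and 7 were 2-fold or more lower (3.78%). These numbers were 18 and 12 with median scaling, 21 and 11 with scaling to the 75th percentile, 21 and 10 with quantile normalization, 23 and 9 with cyclic loess and 22 and 4 with an offset of 50, so the share of higher probes depended on the scaling. With 5 members, a count of 0 is close to what those shares would give, and it says nothing particular about neural miRNAs. With a stricter minimum of 500, 0 of the 4 remaining members were past the limit, beside 16 of 131 probes higher (12.2%) and 3 lower (2.29%).

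The 2 brightest members had nearly equal signals in the breeds. The log2 ratio was -0.058 for ssc-miR-129a and -0.057 for ssc-miR-128. The other 3 had higher signals on the Bama minipig array. The log2 ratio of ssc-miR-129b was 0.46, that of ssc-miR-218b was 0.83 (1.78-fold) and that of ssc-miR-153 was 0.88 (1.84-fold). The median over the 5 was 0.46, against 0.025 over the 185 probes. Of the 5, ssc-miR-153 reached the minimum signal on the Bama array only, with 98.0 on the Landrace array. With the minimum of 500, which leaves ssc-miR-153 out, the members' median was 0.20. Within the miR-129 family, the 5′ arm thus had the higher ratio of these arrays, and the difference between the arms was not tested.

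The only repeat measurements in the table are probes of nearly the same sequence. In 4 pairs of probes above the minimum signal, 1 mature sequence was contained in the other, and the log2 ratios of such pairs differed by 0.026 to 0.15. Within an array, the log2 signals of these 4 pairs differed more, by 0.038 to 0.61. In the fifth pair, Y-14 and Y-47, with signals of 68.7 and 68.3 on the Bama array, the log2 ratios differed by 0.78. These pairs are other miRNAs and show the spread between probes of an array, not between pigs, so they do not show whether a member's ratio exceeds the spread between pools.

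Among probes of like signal, the members were not at the extremes. In the class of mean signals above 1000 and up to 10000, with 85 probes and a median size of the log2 ratio of 0.29, 17 probes had a ratio of the size of ssc-miR-218b or larger, counting ssc-miR-218b itself, and 29 had one of the size of ssc-miR-129b or larger. For ssc-miR-128 this number was 74, so that most probes of the class differed more between the breeds. In the class above 100 and up to 1000, with 77 probes and a median size of 0.45, 24 reached the size of ssc-miR-153.

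**Figure D2:**
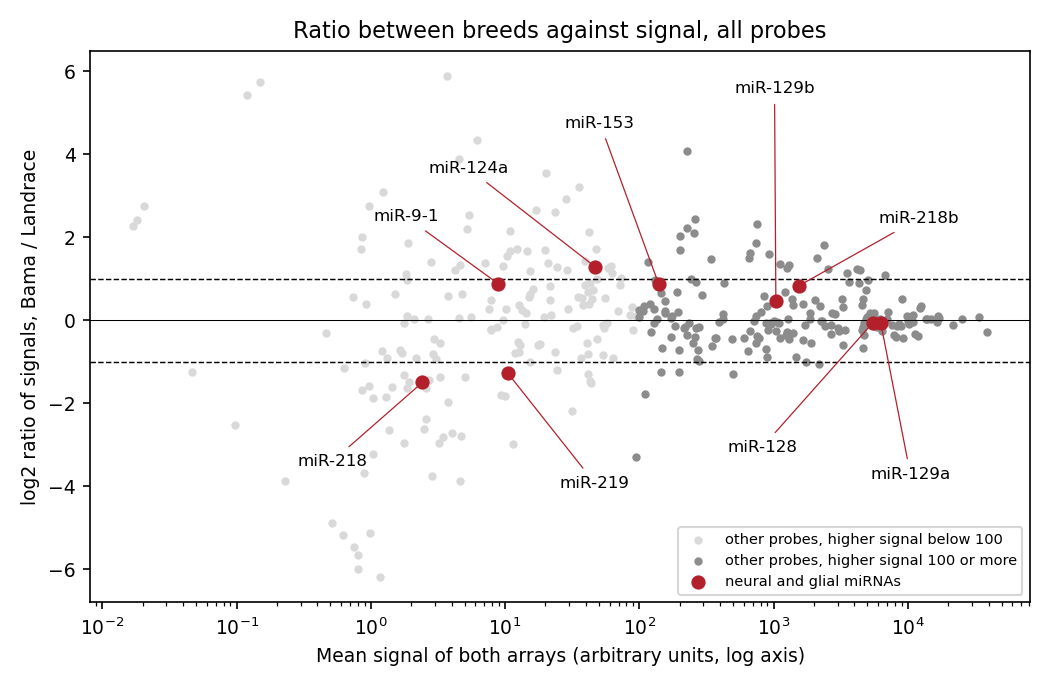
Log2 ratio of signals (Bama minipigs over Landrace pigs) against the mean signal of both arrays on a log axis, 1 point per probe for all 355 probes, with the 9 neural and glial miRNAs named and dashed lines at 2-fold. The 5 brighter members lie between the dashed lines, and the scatter of all probes widens toward low signals.

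The deposited signals set the size of these ratios, since each other scaling of the arrays lowered the ratios of the 5 brighter members. The median log2 ratio of the 185 probes, 0.025 with the deposited signals, was -0.24 with median scaling, -0.16 with scaling to the 75th percentile, -0.068 with quantile normalization and -0.089 with cyclic loess. Across these scalings and after 50 units were added to each signal, the log2 ratio ranged from 0.57 to 0.81 for ssc-miR-218b, from 0.56 to 0.69 for ssc-miR-153 and from 0.20 to 0.44 for ssc-miR-129b, while ssc-miR-128 ranged from -0.32 to -0.057. After the median log2 ratio of the 185 probes was subtracted under each setting, ssc-miR-218b stood 0.78 to 0.83 above it, ssc-miR-153 0.61 to 0.86 and ssc-miR-129b 0.37 to 0.44, and ssc-miR-129a ranged from -0.083 to -0.030 and ssc-miR-128 from -0.10 to -0.031.

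For the 4 dim members, the ratios depended most on the offset. The log2 ratio was 1.30 for ssc-miR-124a, 0.88 for ssc-miR-9-1, -1.27 for ssc-miR-219 and -1.50 for ssc-miR-218. Of the 170 probes whose higher signal was below 100, 45 were 2-fold or more higher in Bama minipigs and 47 were 2-fold or more lower, together 54.1%. With the offset of 50, the log2 ratios of the 4 shrank to 0.60, 0.13, -0.21 and -0.064 in the same order. No direction is drawn from them.

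**Figure D3:**
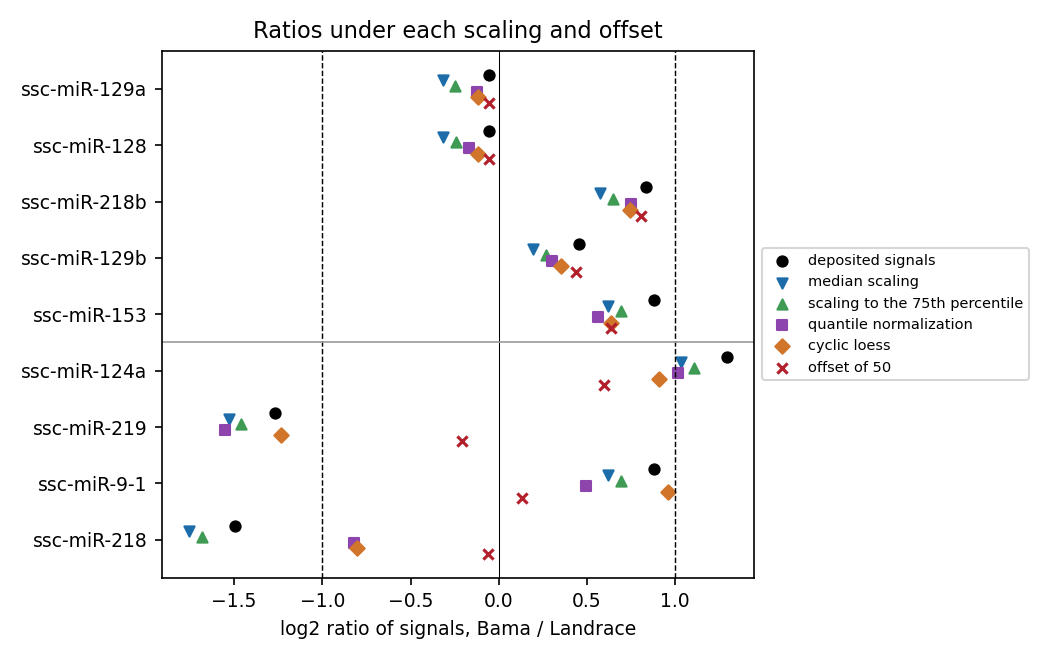
Log2 ratio of signals (Bama minipigs over Landrace pigs) of each member from the deposited signals and under 4 scalings and an offset of 50, with dashed lines at 2-fold; the grey line separates the 5 members with a higher signal of 100 or more (top) from the 4 dimmer ones. The offset, which cannot change a sign, pulled the 4 lower members toward 0.

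The added probe for miR-137, a miRNA of neuronal maturation, resembled the bright members. Y-74 had a signal of 3682 on the Bama array and 2931 on the Landrace array, at rank 62 on each array. Its log2 ratio was 0.33 with the deposited signals, 0.068 with median scaling and 0 with quantile normalization, where the ranks are equal.

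Other brain-enriched miRNAs were taken from a list of 14 probes, Y-74 included, of which 10 reached the minimum signal. Of these 10, 3 were 2-fold or more higher in Bama minipigs and 0 were 2-fold or more lower, with a median log2 ratio of 0.47. Over all 185 probes these shares were 13.0% and 3.78%, and the median was 0.025. ssc-miR-125b, abundant in neurons and in many other cells, had 20710 on the Bama array and 22463 on the Landrace array. Y-1, with the candidate name ssc-miR-132, an activity-dependent neuronal miRNA, had 17403 and 16664. These 2 probes held most of the list's summed signal of 58696 on the Bama array and 51267 on the Landrace array. ssc-miR-338, which with miR-219 promotes oligodendrocyte differentiation, had 169 on the Bama array and 63.4 on the Landrace array (log2 ratio 1.41, or 0.95 with the offset of 50). It reached the minimum signal on the Bama array only, so the filter had a part in this list's count and median. The other 2 past the limit were ssc-miR-135 (log2 ratio 1.50) and ssc-miR-149 (log2 ratio 1.15, or 0.89 with median scaling, 0.96 with scaling to the 75th percentile and 0.95 with quantile normalization). Under each of the 5 other settings 2 or 3 of the 10 were past the limit.

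Lists of miRNAs of other cell types were read on the same arrays. In the endocrine and epithelial list, 0 of 6 probes were past the 2-fold limit, and the median log2 ratio was -0.086. The striated muscle list summed to 1528 on the Bama array and 660 on the Landrace array, its probe of highest mean signal was ssc-miR-133b (439 and 80.6), exceeded on the Landrace array by ssc-miR-206 (278) and ssc-miR-499-5p (192), and of the 5 above the minimum 3 were 2-fold or more higher in Bama minipigs and 1 was lower, beside 13.0% and 3.78% of all 185 probes, with a median log2 ratio of 2.23. The lower one was ssc-miR-206, at -1.25, or -0.97 with the offset of 50. The 3 higher ones, ssc-miR-1, ssc-miR-133a-3p and ssc-miR-133b, reached the minimum on the Bama array only. The filter thus had a part in this count and median. ssc-miR-208b, below the minimum with 0.83 on the Bama array and 4.29 on the Landrace array, was left out. The blood cell list summed to 5497 on the Bama array and 6026 on the Landrace array and was dominated by ssc-miR-451 (5286 and 5841), while ssc-miR-142-3p of leucocytes had 0.49 and 1.46, and 0 of the 2 probes above the minimum were past the limit. The connective tissue and vessel list, led by ssc-miR-126 of endothelium (6981 and 8857), summed to 15631 and 20129, and 1 of 5 was 2-fold or more lower in Bama minipigs, with a median log2 ratio of -0.34. That probe was ssc-miR-143-3p, at -1.01, or -0.98 with the offset of 50, and the count ranged from 0 to 2 over the settings. Above the minimum, the log2 ratio was above 0 in 94 of all 185 probes, in 3 of the 5 neural miRNAs, in 7 of the 10 other brain-enriched, in 2 of the 6 endocrine and epithelial, in 3 of the 5 muscle, in 1 of the 2 blood cell and in 1 of the 5 connective tissue and vessel miRNAs. Whether the mixture of cells had a part in the neural ratios was not tested, and with 1 pool per breed it cannot be told apart from the breed. The hallmark neural miRNAs ssc-miR-124a and ssc-miR-9-1 were at or below 66.3 on both arrays, and so were ssc-miR-219 and ssc-miR-218. Brighter were ssc-miR-129a (6157 on the Bama array and 6408 on the Landrace array), ssc-miR-128 (5384 and 5602) and ssc-miR-218b (1980 and 1111). The same held for ssc-miR-129b (1204 and 877), ssc-miR-153 (180 and 98.0) and the added probe Y-74 (3682 and 2931).

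**Figure D4:**
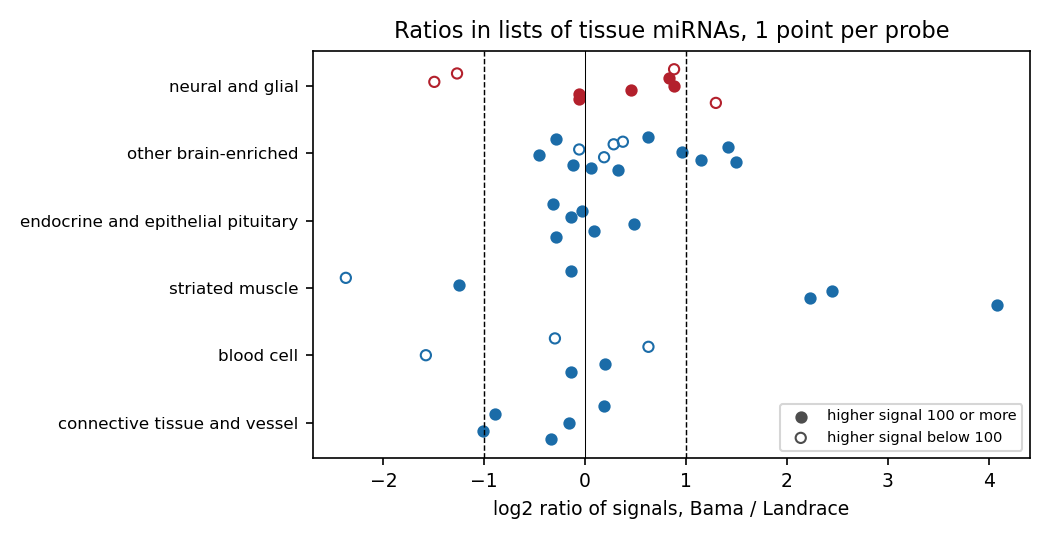
Log2 ratio of signals (Bama minipigs over Landrace pigs) for the neural and glial miRNAs and for 5 lists of tissue miRNAs, 1 point per probe, with filled points for probes whose higher signal was 100 or more, open points for dimmer ones and dashed lines at 2-fold. The filled neural points lie between -0.058 and 0.88, inside the range of the muscle list, whose highest point is ssc-miR-1 at 4.08.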

How the data were processed

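Signal intensity was measured on 1 array per breed. According to the paper's methods, the authors scanned the Cy5 stain, subtracted the background and normalized with a LOWESS filter, and the deposited table holds 1 signal intensity per probe and array on a linear scale. All deposited values are above 0; the handling of spots at or below background is not given in the sources used here. The log2 ratio of the deposited intensity values was computed with no further scaling. The higher signal had to reach 100 (alternatives: no minimum, or 500), and the limit was 2-fold. Precision is limited by the single array per breed, and no p-value was computed.

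The members and lists were chosen with earlier results of these data known. Named miRNAs are all members, Y-74, probes of the lists and, for each member above the minimum, the 2 probes nearest in log2 signal. ssc-miR-27a, ssc-miR-27b and Y-22 were named for their sequence, and Y-14 and Y-47 as a pair of nearly the same sequence. Only sequences and candidate names were taken from the study's supplementary tables; calls of detection, spot SDs and p-values were not used. Alternatives were median scaling over the 185 probes, scaling to the 75th percentile, quantile normalization, cyclic loess with 3 iterations (limma 3.58.1, R 4.3.3) and an offset of 50. The ratio rule was tested on simulated data whose spread was the same at all signals. On these arrays the scatter widens toward low signals, so that test does not give the error rate of the rule here. Scripts ran in Python 3.11.15 with pandas 2.3.3, numpy 2.4.6 and scipy 1.17.1, and plots were drawn with matplotlib 3.10.9.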

Additional observations from a re-analysis of the deposited data

How the results depend on the processing

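The count of 0 members past the 2-fold limit in each direction held under the 4 scalings, the offset of 50, the minimum of 500 and the addition of Y-74. With no minimum signal, 1 of the 9 members was 2-fold or more higher in Bama minipigs (ssc-miR-124a) and 2 were lower (ssc-miR-218 and ssc-miR-219), beside 19.4% and 15.2% of all 355 probes. This follows from admitting dim probes. Of the 20 recomputed log2 ratios of the 4 dim members, 6 moved by a factor of more than 1.5 in the unlogged ratio. The members' median log2 ratio, 0.46 with the deposited signals, was 0.20 with median scaling, 0.27 with scaling to the 75th percentile and 0.20 with the minimum of 500; it stayed above 0 and moved by less than a factor of 1.5 in the unlogged ratio under every alternative run. The share of the summed signal moved by less than that factor, and Spearman's rho by less than 0.1. Leaving out an array was not possible with 1 array per breed. No paired analysis was possible because each breed had 1 array and no replicate numbers.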

Other observations

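The array holds 2 probes named for miR-328, a brain-enriched miRNA, and they differed in seed, in signal and in the sign of the ratio. These probes read different mature sequences, so their ratios are not repeat measurements of 1 miRNA. Between different probes, the signals do not rank amounts. They were singled out after their values were seen. Their mature sequences, with the seed in capitals, were as follows.
ssc-miR-328: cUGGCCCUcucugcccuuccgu
Y-84: gGGGGGCAggaggggcucaggg
The signal of ssc-miR-328 was 413 on the Bama array and 565 on the Landrace array (log2 ratio -0.45). The signal of Y-84, which has the candidate name miR-328, was 6655 and 3411 (log2 ratio 0.96). No test of this difference was possible with 1 array per breed.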
